A study of Mus musculus with 4 samples.

Results

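The 9 genes described here encode the hypoxia-inducible factors (HIFs) and the proteins that read oxygen for them: Hif1a, Epas1, Hif3a, Arnt, Hif1an, Egln1, Egln2, Egln3 and Vhl. The rule that chose them lists gene symbols and uses no measured value, though it was drawn up with earlier results of these data known. All 9 were present among the 19505 named genes on Clariom S Mouse arrays, each with 1 probe (the summary value of a transcript). The study measured the hearts of 4 male mice whose left coronary artery had been ligated at 8 weeks of age to cause myocardial infarction (MI), and the hearts were collected 3 months later. The TTg-MI group held 2 hearts of genotype Tcf21iCre/Tomato/MGTH2A and the Ctrl-MI group 2 hearts of genotype Tcf21iCre/Tomato. All hearts thus carried the infarct, the Tomato reporter and a Cre recombinase under Tcf21, a gene of cardiac fibroblasts. The name MGTH2A stands, in this field, for a transgene that joins Mef2c, Gata4, Tbx5 and Hand2, regulators of heart muscle identity meant to reprogram fibroblasts. The sources used here do not say how or when the Cre was induced.

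Cells sense oxygen through the stability of the HIF alpha subunits. With oxygen present, the prolyl hydroxylases encoded by the Egln genes mark the alpha subunits, the VHL ubiquitin ligase binds the mark, and the subunits are destroyed. When oxygen is short they persist, pair with the constant beta subunit ARNT and switch on genes of glycolysis, vessel growth, iron handling and collagen processing. Most of this control acts on protein, whereas the arrays read RNA, so the values below show how much transcript of each component was present and not the activity of the factors. In the infarcted heart the pathway is known for its part in muscle survival, vessel growth and scar formation.

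Of the transgene's factor genes, Tbx5 stood at 10.68 and 9.72 log2 units in TTg-MI hearts, against 7.62 and 7.88 in Ctrl-MI hearts, and Mef2c at 16.01 and 13.97, against 12.67 and 13.01. The groups overlapped for Gata4, at 14.07 and 13.38 log2 units in TTg-MI hearts, against 13.39 and 13.74 in Ctrl-MI hearts, and for Hand2, at 9.94 and 8.93, against 9.09 and 8.24. RNA came from the whole heart, and heart muscle markers were strong on every array, with Myh6 between 19.42 and 19.76 log2 units. Ctrl-MI replicate 1 stood somewhat apart, correlating across probes at 0.977 to 0.987 with the other arrays, which correlated at 0.989 to 0.991 among themselves. The atrial muscle gene Myl7 stood at 5.61 log2 units in Ctrl-MI replicate 2 and between 10.44 and 12.45 in the other hearts. Results are therefore also given without single hearts. In whole-heart RNA, fewer cells of a type and less RNA per cell cannot be told apart.

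Hif1a was the gene of the 9 that differed most, with less transcript in both TTg-MI hearts, and Egln1 was the one with the largest difference upward. Neither passed the test over all probes. In limma with Benjamini-Hochberg adjustment over 22206 probes, 0 of the 9 genes were called at an adjusted p under 0.05, where 1 probe, or 0.00450% of all, was called. At an unadjusted p under 0.05 limma gave 1 of the 9, Hif1a, beside 8.25% of all probes. An ordinary linear model without moderation called 0 of the 9 after adjustment, and its unadjusted p for Hif1a was 0.0625. The median log2 difference of the 9 was 0.06, with 5 means higher and 4 lower in TTg-MI, beside 52.3% and 47.7% of all probes. The median of all probes was 0.01. The median of the 9 ran from -0.13 to 0.03 as single hearts were left out, below 0 in all of these fits but the one without Ctrl-MI replicate 1. With 2 hearts against 2, the smallest two-sided p that an exact permutation test allows for 1 gene is 0.333. The limma p-values given here use a spread pooled over probes.

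**Figure D1:**
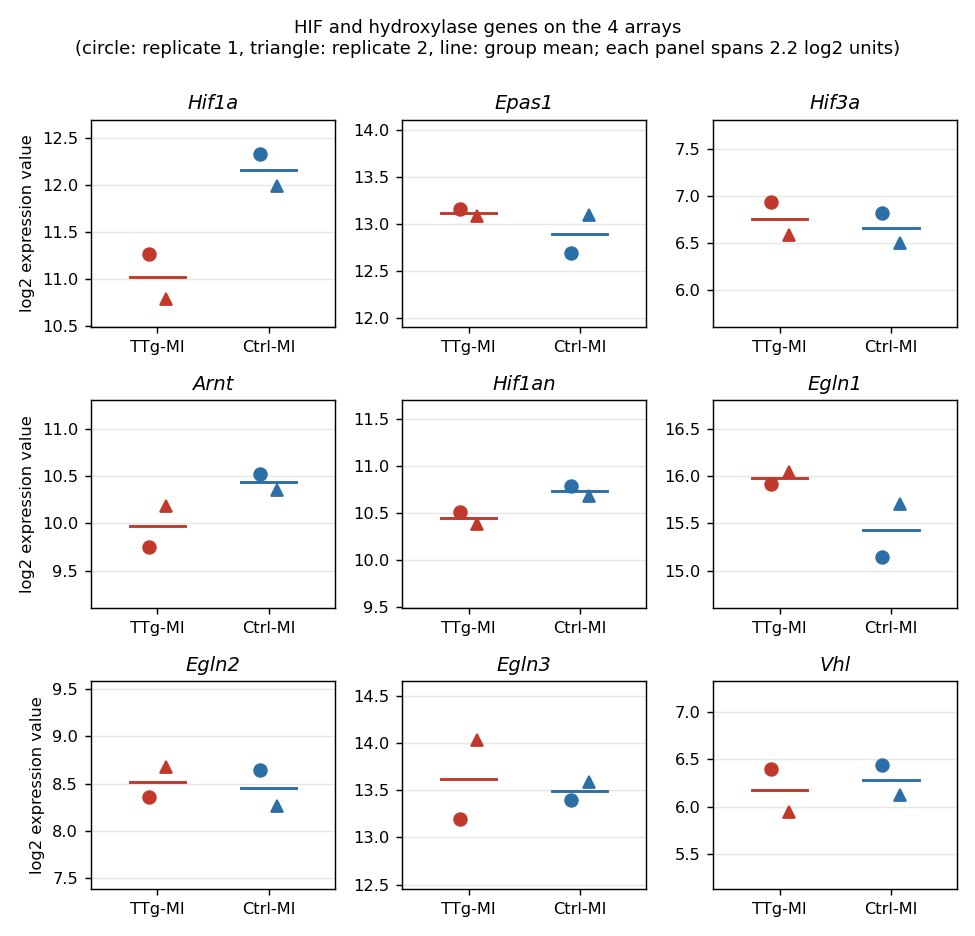
Log2 expression values of the 9 genes (y axis, each panel 2.2 log2 units high) in the 2 TTg-MI and 2 Ctrl-MI hearts (x axis), with replicate 1 as a circle, replicate 2 as a triangle and the group mean as a line. The Hif1a points of TTg-MI (11.27 and 10.78) lie below those of Ctrl-MI (12.33 and 11.99), the Egln1 points lie the other way, and for Epas1, Hif3a, Egln2, Egln3 and Vhl the groups overlap.

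The alpha subunits are the oxygen-regulated partners in the factors. Hif1a, which encodes the broadly expressed alpha subunit that drives the glycolytic response, stood at 11.27 and 10.78 log2 units in TTg-MI hearts, against 12.33 and 11.99 in Ctrl-MI hearts. The groups did not overlap, and the higher TTg-MI heart lay 0.72 log2 units below the lower Ctrl-MI heart. The means were 11.03 ± 0.34 in TTg-MI and 12.16 ± 0.24 in Ctrl-MI (SD, n = 2 each). The log2 difference of -1.13 (SE 0.23, 95% interval -1.71 to -0.56) is 2.19-fold lower in TTg-MI. The adjusted p from limma with Benjamini-Hochberg was 0.546. Of all probes, 0.581% had a smaller p and 1.07% a lower difference. Leaving out 1 heart at a time kept the difference below 0 each time. It was -1.37 with TTg-MI replicate 1 left out and -0.89 with TTg-MI replicate 2 left out. Dropping Ctrl-MI replicate 1 gave -0.96, and dropping Ctrl-MI replicate 2 gave -1.30.

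Epas1 encodes the other main alpha subunit, HIF-2 alpha, which is abundant in endothelial cells. It stood at 13.16 and 13.09 log2 units in TTg-MI hearts, against 12.70 and 13.09 in Ctrl-MI hearts. The second Ctrl-MI heart lay within the range of the TTg-MI hearts, and Ctrl-MI replicate 1 was the low one. The log2 difference was 0.23 (SE 0.19, 95% interval -0.25 to 0.70, adjusted p = 0.829 in limma with Benjamini-Hochberg). Dropping Ctrl-MI replicate 1 gave 0.03, and dropping the other Ctrl-MI heart gave 0.43.

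Hif3a encodes a further alpha subunit, some of whose forms hold back the other factors. It stood at 6.94 and 6.58 log2 units in TTg-MI hearts, against 6.82 and 6.50 in Ctrl-MI hearts. The spread within each group was wider than the log2 difference of 0.10 (SE 0.20, 95% interval -0.41 to 0.61), which took the opposite sign without TTg-MI replicate 1 (-0.08) and without Ctrl-MI replicate 2 (-0.06). These values lie near the array medians of 6.55 to 6.62. No detection calls came with the values, so how far such levels exceed background is unknown.

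Arnt encodes the beta subunit that every alpha subunit needs to bind DNA. It stood at 9.75 and 10.18 log2 units in TTg-MI hearts, against 10.53 and 10.35 in Ctrl-MI hearts. The groups did not overlap, with a gap of 0.17 log2 units between them, and TTg-MI replicate 1 was the lowest heart. The log2 difference was -0.47 (SE 0.20, 95% interval -0.97 to 0.03, adjusted p = 0.619 in limma with Benjamini-Hochberg). Without TTg-MI replicate 1 it shrank to -0.25, and it was -0.68 without TTg-MI replicate 2. Arnt2 and Arntl, relatives of Arnt, differed by -0.02 (SE 0.16) and -0.73 (SE 0.88), and Arntl, a core clock gene, was spread from 6.70 to 9.52 log2 units within TTg-MI alone.

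Egln1 encodes PHD2, the prolyl hydroxylase that sets HIF levels in most cells at normal oxygen. It stood at 15.92 and 16.05 log2 units in TTg-MI hearts, against 15.15 and 15.70 in Ctrl-MI hearts. Both TTg-MI hearts lay above both Ctrl-MI hearts, with a gap of 0.21 log2 units, and Ctrl-MI replicate 1 was the lowest. The means were 15.98 ± 0.09 in TTg-MI and 15.43 ± 0.39 in Ctrl-MI (SD, n = 2 each). The log2 difference of 0.56 (SE 0.23, 95% interval -0.01 to 1.12) is 1.47-fold. Limma with Benjamini-Hochberg gave an adjusted p of 0.607. With Ctrl-MI replicate 1 left out the difference was 0.28, and with Ctrl-MI replicate 2 left out it was 0.83, so its size depended on which Ctrl-MI heart was kept. Of all probes, 3.22% had a higher difference.

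The other prolyl hydroxylases showed no difference beyond their spread. Egln3 encodes PHD3, known to be induced by low oxygen itself. It stood at 13.20 and 14.04 log2 units in TTg-MI hearts, against 13.40 and 13.59 in Ctrl-MI hearts. The TTg-MI hearts held both the lowest and the highest value, and the log2 difference of 0.12 (SE 0.30, 95% interval -0.61 to 0.86) was 0.54 with TTg-MI replicate 1 dropped and -0.29 with TTg-MI replicate 2 dropped. Egln2, which encodes PHD1, stood at 8.35 and 8.67 log2 units in TTg-MI hearts, against 8.64 and 8.26 in Ctrl-MI hearts. Its log2 difference was 0.06 (SE 0.21, 95% interval -0.46 to 0.58). It took the opposite sign without TTg-MI replicate 2 (-0.10) and without Ctrl-MI replicate 2 (-0.13).

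Hif1an and Vhl act on the alpha subunits in other ways. Hif1an encodes FIH, an asparaginyl hydroxylase that keeps co-activators off the alpha subunits, and stood at 10.51 and 10.39 log2 units in TTg-MI hearts, against 10.79 and 10.68 in Ctrl-MI hearts. The groups did not overlap, with a gap of 0.17 log2 units. The log2 difference was small at -0.29 (SE 0.15, 95% interval -0.67 to 0.10, adjusted p = 0.699 in limma with Benjamini-Hochberg), and it ran from -0.35 to -0.22 as single hearts were left out. Vhl, which encodes the part of the ubiquitin ligase that recognises hydroxylated alpha subunits, stood at 6.40 and 5.94 log2 units in TTg-MI hearts, against 6.44 and 6.13 in Ctrl-MI hearts. These values were below each array's median and above its lower quartile. The groups overlapped, and the log2 difference was -0.11 (SE 0.22, 95% interval -0.67 to 0.44), turning to 0.12 without TTg-MI replicate 2 and 0.05 without Ctrl-MI replicate 1.

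Thus the arrays of the groups did not overlap for 4 of the 9 genes, Hif1a, Arnt and Hif1an on the low side and Egln1 on the high side. Among all probes 18.7% lay apart on the low side and 19.4% on the high side, 38.1% together, so a count of 4 of 9 is near that background.

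**Figure D2:**
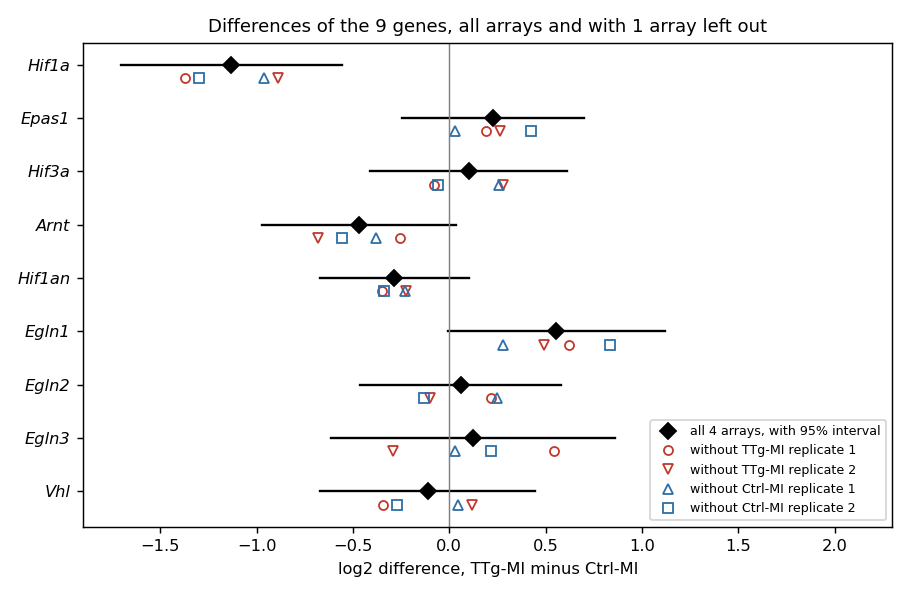
Log2 difference of each gene, TTg-MI minus Ctrl-MI (x axis), with all 4 arrays (black diamond, bar for the 95% interval from limma) and with 1 array left out (open symbols). Hif1a is the only gene of the 9 whose interval from limma, not adjusted for the number of genes, lies clear of 0. The open symbols of Hif3a, Egln2, Egln3 and Vhl fall on both sides of 0.

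HIFs bind DNA at the hypoxia response element, whose core is ACGTG or GCGTG. The core was looked for on both strands in the 250 bases before each start site in RefSeq's mouse annotation (GRCm38.p6), where 8 of the 9 genes matched a window, all except Epas1. A core was present for 6 of the 8 genes, in 7 of their 9 windows, and in 38.6% of all 32851 windows of this length. The windows of Hif1a (chr12:73907617-73907866, plus strand), Arnt (chr3:95434140-95434389, plus strand) and Egln1 (chr8:124949255-124949504, minus strand) are shown because these genes had the smallest p of the 9. They are printed 5′ to 3′ along the gene, with each core in capitals, on whichever strand it lies.
Hif1a: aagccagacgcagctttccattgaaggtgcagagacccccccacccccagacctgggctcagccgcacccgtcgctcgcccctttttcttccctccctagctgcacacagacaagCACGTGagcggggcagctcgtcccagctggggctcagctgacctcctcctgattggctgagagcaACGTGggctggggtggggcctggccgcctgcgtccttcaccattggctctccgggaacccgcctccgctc
Arnt: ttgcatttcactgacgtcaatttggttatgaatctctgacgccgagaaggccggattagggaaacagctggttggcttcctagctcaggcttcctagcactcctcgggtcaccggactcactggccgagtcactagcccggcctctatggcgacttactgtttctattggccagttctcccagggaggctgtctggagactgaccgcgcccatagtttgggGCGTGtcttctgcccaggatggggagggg
Egln1: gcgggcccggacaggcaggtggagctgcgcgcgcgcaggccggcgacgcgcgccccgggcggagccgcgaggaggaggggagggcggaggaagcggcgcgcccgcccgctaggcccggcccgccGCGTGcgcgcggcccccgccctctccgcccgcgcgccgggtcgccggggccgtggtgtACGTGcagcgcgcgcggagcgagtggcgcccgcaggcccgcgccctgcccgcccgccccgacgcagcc
In the Hif1a window the core lies in a CACGTG, which reads as a core on both strands and is also an E-box, the site of many other factors, and a second core begins 70 bases before the start. Egln1 has a core at 126 and another at 68 bases before its start, and Arnt has one at 29 bases. The core was present for Hif1a and Arnt, lower in mean in TTg-MI, and for Egln1, higher in mean. It was also present for Hif3a, Egln2 and Egln3, for which the groups overlapped. These matches describe the letters of the windows and show no binding.

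Genes of the pathway outside the 9 were followed in 5 lists of known HIF targets and 2 lists of proteins that degrade or assist the factors. In all 76 measured genes, limma with Benjamini-Hochberg called 0 (the smallest adjusted p was 0.530), and at an unadjusted p under 0.05 it gave 2 higher and 10 lower genes, beside 3.18% and 5.07% of all probes. The ordinary linear model also called 0. The arrays of the groups lay apart for 11 genes on the high side (14.5% of the 76) and 21 on the low side (27.6%), beside the 19.4% and 18.7% of all probes. The median log2 difference of the 76 was -0.08, against 0.01 for all probes.

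Targets that process collagen had a median of -0.52 over 6 measured genes. Of the 6, 4 (66.7%) were apart on the low side and 0 on the high side. The shares of all probes were 18.7% and 19.4%. The median was -0.28 without Ctrl-MI replicate 1. Lox, which cross-links collagen and elastin, stood at 6.09 and 5.77 log2 units in TTg-MI hearts, against 8.25 and 7.19 in Ctrl-MI hearts (log2 difference -1.79, SE 0.36). P4ha1, a subunit of the collagen prolyl hydroxylase, stood at 11.50 and 11.82 log2 units in TTg-MI hearts, against 13.15 and 12.45 in Ctrl-MI hearts (-1.14, SE 0.27). Ero1a, an oxidase of protein folding, had a mean difference of -0.54 (SE 0.22), or -0.26 without Ctrl-MI replicate 1. For all 6, limma's p after Benjamini-Hochberg adjustment was 0.546 or above.

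Genes of glucose uptake and glycolysis showed no shared direction, with 8 means higher and 10 lower in TTg-MI among 18 measured. Their median was -0.04, and -0.06 to -0.0023 as single hearts were left out. Of the 18, 4 (22.2%) were apart on the low side and 1 (5.56%) on the high side, beside 18.7% and 19.4% of all probes. The lactate exporter Slc16a3 (-0.81, SE 0.26) and Pfkfb3, which makes an activator of glycolysis (-0.75, SE 0.25), were lower in mean and apart from Ctrl-MI, though each difference was under 0.5 in size without Ctrl-MI replicate 1 (-0.48 and -0.43). Ldha, the lactate dehydrogenase of glycolytic tissue, stood at 15.60 and 15.63 log2 units in TTg-MI hearts, against 15.78 and 15.93 in Ctrl-MI hearts. Gapdh and Aldoa lay within 1 log2 unit of the highest value of the arrays, about 19.93, so no difference is given for them.

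Among 13 vessel genes the median was -0.12, turning to 0.02 without Ctrl-MI replicate 1. On each side 1 gene (7.69%) was apart, beside 18.7% of all probes on the low side and 19.4% on the high side. Pgf, a growth factor for vessels, was the lower one (-0.57, SE 0.21), and Kdr, a receptor for VEGF, was the higher one, at 14.99 and 14.47 log2 units in TTg-MI hearts, against 13.84 and 14.34 in Ctrl-MI hearts (0.64, SE 0.26). Vegfa itself, the best known target, was spread over 11.53 to 12.49 within Ctrl-MI, with both TTg-MI hearts (11.77 and 12.00) inside that range. The vasodilator peptide gene Adm differed by -0.50 (SE 0.34) through Ctrl-MI replicate 1 at 9.07 log2 units, as the other hearts lay between 8.03 and 8.08, and the difference was 0.02 without that heart.

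Stress and feedback targets had 5 means higher and 11 lower in TTg-MI and a median of -0.19, which was -0.11 with TTg-MI replicate 1 dropped and -0.33 with TTg-MI replicate 2 dropped. Bhlhe40, a transcriptional repressor induced by low oxygen, stood at 11.88 and 13.04 log2 units in TTg-MI hearts, against 14.16 and 13.81 in Ctrl-MI hearts (-1.53, SE 0.39). Ankrd37, an ankyrin-repeat gene induced by HIF, stood at 6.43 and 6.87 log2 units in TTg-MI hearts, against 7.52 and 7.26 in Ctrl-MI hearts (-0.74, SE 0.21). Car9, a carbonic anhydrase of hypoxic tissue, lay the other way with a small difference of 0.38 (SE 0.16). Its values, 5.73 to 6.22 log2 units, were below each array's median and above its lower quartile. Of the 16 genes, 6 (37.5%) were apart on the low side and 3 (18.8%) on the high side, beside 18.7% and 19.4% of all probes. Car12, 1 of the 3, was under the lower quartile on 3 arrays.

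Iron and haem targets split in direction. Of 7 genes, 4 (57.1%) were apart on the high side and 2 (28.6%) on the low side. The shares of all probes were 19.4% and 18.7%. Tfrc, 1 of the 4, had the largest difference of the list (1.26, SE 0.58) but a gap of only 0.0092 log2 units between the groups. Epo, counted among the 4, was below each array's lower quartile, so its difference is not given, and the other 6 had a median of 0.48 (0.34 to 0.49 as single hearts were left out). Slc40a1, the iron exporter ferroportin, had the smallest p of all pathway genes, at 8.51 and 8.65 log2 units in TTg-MI hearts, against 7.55 and 7.69 in Ctrl-MI hearts (0.96, SE 0.16, adjusted p = 0.530 in limma with Benjamini-Hochberg). Its difference stayed between 0.89 and 1.03 as single hearts were left out. The ferroxidase gene Cp was also higher in mean (0.86, SE 0.25), and Hmox1, which breaks down haem, was lower in mean (-0.79, SE 0.22).

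Of 9 genes that degrade HIF or edit that process, Elob, a subunit of the VHL ligase, stood at 13.17 and 12.95 log2 units in TTg-MI hearts, against 13.52 and 13.46 in Ctrl-MI hearts (-0.43, SE 0.16). Os9 (-0.45, SE 0.17) and the ubiquitin ligase gene Siah2 (-0.58, SE 0.29), which acts on the prolyl hydroxylases, were the next by p. Of the 9, 3 (33.3%) were apart on the low side and 1 (11.1%) on the high side. The shares of all probes were 18.7% and 19.4%. Among 8 cofactor genes the chaperone Hsp90aa1 differed by -0.68 (SE 0.28), the co-activator Ncoa2 by 0.32 (SE 0.19) and Pkm, a glycolytic enzyme also known to bind HIF, by 0.24 (SE 0.19). As single hearts were left out, these ran from -1.05 to -0.31 for Hsp90aa1, from 0.15 to 0.49 for Ncoa2 and from 0.07 to 0.41 for Pkm. The median of the degradation list was -0.07, but -0.37 with Ctrl-MI replicate 1 dropped and 0.06 with Ctrl-MI replicate 2 dropped. That of the cofactors was 0.02, and it ran from -0.08, without Ctrl-MI replicate 2, to 0.15, without TTg-MI replicate 2.

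The pathway calls depended on the Ctrl-MI heart kept. Without Ctrl-MI replicate 2, which leaves Ctrl-MI replicate 1 alone in its group, limma with Benjamini-Hochberg called 5 of the 76 genes (6.58%), all lower in TTg-MI, beside 1.50% of all probes. These were Edn1, Lox, P4ha1, Slc2a1 and Trf, named after their values were seen, with adjusted p of 0.0309 to 0.0493. The glucose transporter gene Slc2a1 stood at 9.75 and 9.95 log2 units in TTg-MI hearts, against 11.20 in Ctrl-MI replicate 1 and 9.55 in Ctrl-MI replicate 2. Edn1 and Trf likewise were high in Ctrl-MI replicate 1 and near the TTg-MI level in Ctrl-MI replicate 2. With any other heart left out 0 of the 76 were called, beside 0.00901% of all probes without Ctrl-MI replicate 1 and 0.00450% without either TTg-MI heart. Of the 21 genes named by p from the 7 lists, 14 moved by more than 1.5 times or turned in at least 1 fit without a heart, and Adm alone turned. These were Slc16a3, Pfkfb3, Pgf, Kdr, Adm, Bhlhe40, Hmox1, Cp, Ero1a, Os9, Siah2, Hsp90aa1, Ncoa2 and Pkm. The count was 7 with TTg-MI replicate 1 dropped, 3 with TTg-MI replicate 2 dropped, 9 with Ctrl-MI replicate 1 dropped and 3 with Ctrl-MI replicate 2 dropped.

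**Figure D3:**
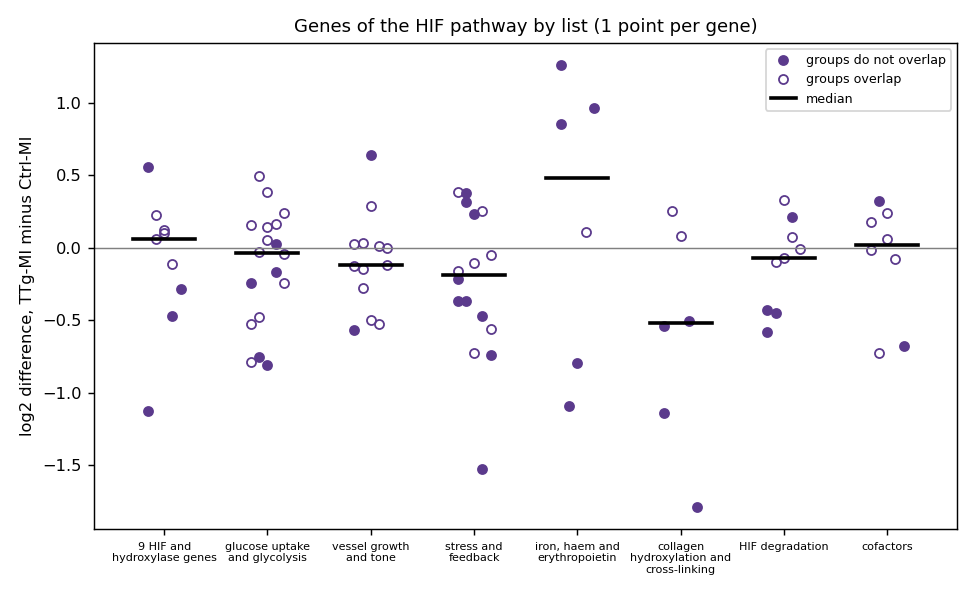
Log2 difference, TTg-MI minus Ctrl-MI (y axis), of each gene of the 9 and of the 7 pathway lists (x axis), filled where the arrays of the groups do not overlap and open where they do, with a black line for each median. Epo is left out as too dim. The median is -0.52 for the collagen list, 0.48 for the iron list and between -0.19 and 0.06 for the others. The order of the medians changes whichever heart is left out. Without Ctrl-MI replicate 1 the degradation list (-0.37) lies below the collagen list (-0.28).

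Summed levels of some cell type markers lay apart between the groups, as Hif1a and Egln1 did, but no sum was tested. Macrophage markers, summed over the 5 measured, stood at 10.44 to 10.95 log2 units in TTg-MI hearts, against 11.33 to 12.61 in Ctrl-MI hearts, with 5 of 5 means lower. Their median difference was -0.56 without Ctrl-MI replicate 1, where Fcgr1 turned to 0.10, and -1.62 without Ctrl-MI replicate 2. Fibroblast markers, also 5, summed to 17.90 to 18.49 log2 units in TTg-MI hearts, against 18.62 to 19.27 in Ctrl-MI hearts, again with 5 of 5 means lower. The fibroblast sum was set by Dcn, at 18.46 and 17.88 in TTg-MI hearts, against 19.24 and 18.59 in Ctrl-MI hearts. In Ctrl-MI replicate 1 Dcn lay within 1 log2 unit of the highest value of the arrays. Tcf21 itself stood at 7.26 in both TTg-MI hearts, against 8.96 and 8.30 in Ctrl-MI hearts. The order of the hearts by Hif1a, from Ctrl-MI replicate 1 down to TTg-MI replicate 2, was the order by the macrophage and fibroblast sums. For the fibroblast sum this is in effect the order by Dcn alone. The endothelial, mesothelial and lymphocyte sums gave other orders, and with 4 hearts many genes can share an order. The part of these cells in the Hif1a difference was not tested.

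Heart muscle markers summed to 21.64 to 21.67 log2 units in TTg-MI hearts, against 21.34 to 21.63 in Ctrl-MI hearts, with 6 of 6 means higher and Ctrl-MI replicate 1 the lowest, as for Egln1. The nearest sums of the groups were 21.642 in TTg-MI replicate 1 and 21.633 in Ctrl-MI replicate 2. The median difference of these markers was 0.19, but 0.01 without Ctrl-MI replicate 1, where Myl2 turned to -0.0055. The part of muscle content in the Egln1 difference was not tested, and several muscle markers lay near the highest value of the arrays. For Epas1 the endothelial sum was 13.74 to 14.10 in TTg-MI hearts, against 13.98 to 14.36 in Ctrl-MI hearts, with 4 of 5 means lower in TTg-MI and Tie1 higher. Lymphocyte markers summed to 7.46 to 7.53 log2 units in TTg-MI hearts, against 7.72 to 7.83 in Ctrl-MI hearts, with Cd3g and Ms4a1 under the lower quartile of both TTg-MI arrays. Mural cell markers (smooth muscle cells and pericytes) summed to 15.77 to 15.92 log2 units in TTg-MI hearts, against 14.54 to 15.60 in Ctrl-MI hearts. Abcc9 made up much of this sum, at 15.14 and 15.54 in TTg-MI hearts, against 13.38 and 14.91 in Ctrl-MI hearts. As a list the mural markers showed no shared direction, with 3 means higher, 3 lower and a median difference of -0.02. The atrial sum, 18.97 to 20.07 log2 units in TTg-MI hearts against 19.90 to 20.04 in Ctrl-MI hearts, was set by Nppa near the highest value of the arrays. Of the 5 atrial means, 4 were higher in TTg-MI. For Myl4 and Sln this came through Ctrl-MI replicate 2, at 7.70 and 7.90 log2 units. Without that heart their differences were -0.52 and -0.33. Bmp10, an atrial growth factor gene, was the 1 probe of all that limma called (adjusted p = 0.00489 with Benjamini-Hochberg). It stood at 12.38 and 11.82 log2 units in TTg-MI hearts, against 5.31 and 5.40 in Ctrl-MI hearts, both under their array's lower quartile. The sums overlapped between the groups for mesothelial (9.01 to 9.25 in TTg-MI, against 9.10 to 10.17 in Ctrl-MI) and adipocyte markers (7.17 to 7.19, against 7.08 to 7.32), with Lep under the lower quartile on all 4 arrays. Of the erythroid markers Alas2 was measured, at 7.17 and 7.70 log2 units in TTg-MI hearts, against 7.74 and 7.49 in Ctrl-MI hearts.

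**Figure D4:**
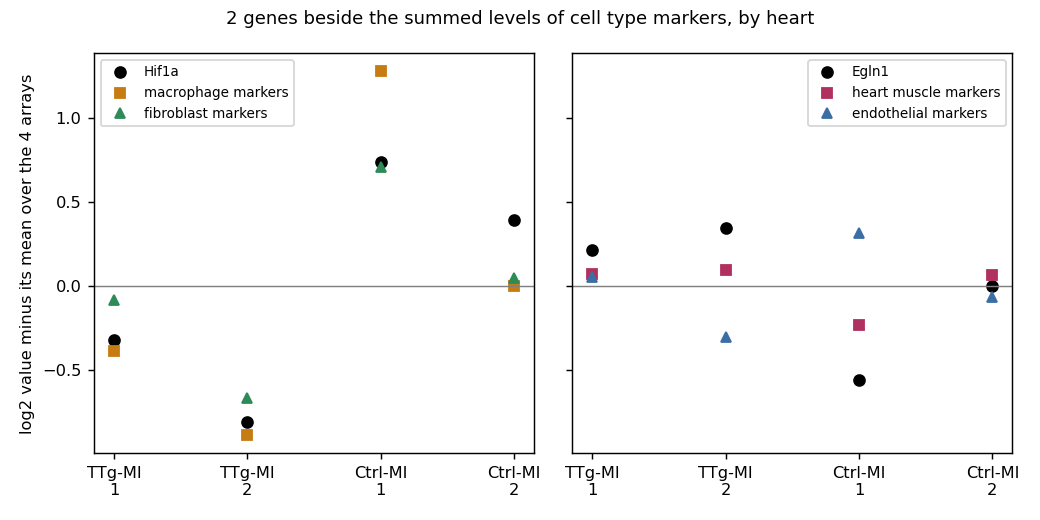
Log2 values of Hif1a and Egln1 and log2 summed levels of cell type markers (y axis, each minus its own mean over the 4 arrays) in each heart (x axis). In the left panel Hif1a and the macrophage and fibroblast sums are lower in both TTg-MI hearts, and in the right panel Egln1 and the heart muscle sum are lowest in Ctrl-MI replicate 1.

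The genes nearest in pattern were sought for the 3 with the smallest p, by the root mean square difference between centred values over the 4 arrays. For Hif1a these were Hexa, which encodes a lysosomal hexosaminidase (0.04 log2 units), Elmo1, a gene of cell migration and engulfment (0.07), and Prkcd, a protein kinase C (0.07). Hexa stood at 9.54 and 9.11 log2 units in TTg-MI hearts, against 10.63 and 10.38 in Ctrl-MI hearts. Nearest to Egln1 were Nebl, which encodes the muscle protein nebulette, Mavs, an adaptor of antiviral signalling, and Klhl7, each at 0.03. Nebl stood at 15.30 and 15.43 log2 units in TTg-MI hearts, against 14.50 and 15.13 in Ctrl-MI hearts. For Arnt they were Map4, a microtubule-associated protein gene (0.02), Sgms2, a sphingomyelin synthase gene (0.02), and Dennd5b (0.03). With 4 arrays many genes can share a pattern, and these are descriptions only.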

How the data were processed

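Clariom S Mouse arrays of 2 TTg-MI and 2 Ctrl-MI hearts were used. The deposited values are on a log2 scale, inferred from their range. Per the submitters' processing notes, the authors used Affymetrix Expression Console 1.4 to make them. The normalization method, annotation version and genome build are not stated in the sources used here. Probe names come from GEO's platform annotation: of 22206 probes, 19572 had 1 symbol and 2634 were unnamed here. For a symbol with several probes, the one with the highest mean was used. No filter was applied. All probes were fitted with limma 3.58.1 in R 4.3.3 (lmFit and eBayes, two-sided, Benjamini-Hochberg over all probes, threshold 0.05, 2 residual and 3.56 prior degrees of freedom), and the script was tested on simulated data. Differences are TTg-MI minus Ctrl-MI. Array data have no read depth, and their number limits the precision.

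The 9 genes and the 17 lists were chosen with earlier results of these data known. Of 133 symbols listed, 13 had no match and were not analysed here. All 9 genes were named, with the 3 of smallest p per pathway list and any that passed, and the 3 genes nearest in pattern to each of the 3 members of smallest p. Other genes given a value were chosen after their values were seen, or describe a marker list or the transgene. The design text calls the hearts independent biological replicates. The alternatives comprised median centring, quantile normalization, leaving out dim probes, a trended robust prior, a replicate block, each array left out, no moderation and the mean of a symbol's probes.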

Additional observations from a re-analysis of the deposited data

How the results depend on the processing

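Over 11 alternatives, 0 of the 9 genes were called in any of them, and 5 (Hif1a, Epas1, Arnt, Hif1an and Egln1) kept their direction in all. The other 4 turned only in fits without 1 array, where Hif3a ran from -0.0775 to 0.28, Egln2 from -0.13 to 0.25, Egln3 from -0.29 to 0.54 and Vhl from -0.34 to 0.12. The adjusted p of Hif1a in limma ran from 0.0898, without Ctrl-MI replicate 2, to 1.0, without TTg-MI replicate 2. The median of the 9 genes, 0.06 with all arrays, ran from -0.131 to 0.0314 without single arrays. The 76 pathway genes gave 0 to 5 calls without single arrays, and their median of -0.0764 ran from -0.118 to -0.0767 and was -0.0475 with quantile normalization. The causes were not tested. Replicate numbers come from the titles, and nothing states that a number marks a shared batch. Deviations of same-numbered hearts correlated at 0.163 across probes. With the replicate block, 0 of the 9 and 0 of the 76 genes were called, with an adjusted p of 0.0986 for Hif1a. Over all probes limma called 1 with all arrays, 7 with the block, 4 with the trended robust prior, 2 with Ctrl-MI replicate 1 dropped and 332 with Ctrl-MI replicate 2 dropped, and an ordinary linear model called 0. Fits that drop an array take the lone heart left in a group to vary like the pair in the other. Signal over background could not be judged, as no detection calls were used.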
